A study of Mus musculus with 9 samples.

Results

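The comparison described here sets mouse 8-cell embryos in which both histone H3.3 genes were knocked down (H3.3-KD) against control embryos of the same stage. It uses 6 of the 9 libraries in the study, 3 per group. Genes entered when their mean over these 6 libraries reached 1 FPKM, which 13111 of the 55335 gene rows did. FPKM is the number of fragments per kilobase of transcript, scaled to the number of mapped fragments of the library. The H3.3-KD embryos came from ICR mouse zygotes, made by in vitro fertilization, that received small interfering RNAs (siRNAs) against H3f3a and H3f3b together. Control zygotes received a nontargeting siRNA, so that fertilization in vitro, injection and culture in KSOM medium were common to both groups. Each library was a pool of embryos, 5 to 10 per the labels. The remaining 3 libraries, from embryos that received siRNA against Mfn1 (MFN1-KD), enter below only where they are named. The study calls the libraries of a group biological replicates. Whether they came from separate rounds of injection is not stated, and p-values measure the spread between these libraries.

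H3.3 is the histone H3 variant that is made throughout the cell cycle and laid down independently of DNA replication. HIRA, with its partners UBN1 and CABIN1, deposits it at active genes, and DAXX with ATRX deposits it at repeats and telomeres. After fertilization maternal H3.3 is taken up by the sperm-derived chromatin, and the variant stays in use through the cleavage divisions, when the embryo passes from stored maternal RNA to transcription of its own genome. H3f3a and H3f3b encode the same protein from different messages.

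The coding sequences of the targets are shown because they decide which other genes could share reads with them. The first 120 coding bases of H3f3a (GENCODE M21, GRCm38, chr1:180811807-180811926, minus strand) are followed by those of H3f3b (chr11:116023890-116024009, minus strand). The same stretches of a pair of H3f3a pseudogenes come next, H3f3c (chr2:119665917-119666036, minus strand) and H3f3a-ps2 (chr16:91114480-91114599, minus strand). Capitals mark bases that differ from H3f3a.
H3f3a: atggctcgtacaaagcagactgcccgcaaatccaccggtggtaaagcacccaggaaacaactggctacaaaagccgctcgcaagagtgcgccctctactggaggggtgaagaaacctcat
H3f3b: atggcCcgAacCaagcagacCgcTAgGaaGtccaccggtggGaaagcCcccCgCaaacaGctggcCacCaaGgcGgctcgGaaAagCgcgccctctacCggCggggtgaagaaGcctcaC
H3f3c: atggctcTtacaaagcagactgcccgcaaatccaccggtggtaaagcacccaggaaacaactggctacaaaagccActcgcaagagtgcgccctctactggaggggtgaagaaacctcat
H3f3a-ps2: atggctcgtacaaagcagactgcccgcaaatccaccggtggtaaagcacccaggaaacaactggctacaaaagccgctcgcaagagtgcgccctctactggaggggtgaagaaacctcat
Over 408 coding bases, without the stop codon, H3f3b differed from H3f3a at 95 positions (76.7% identity). H3f3c differed from H3f3a at 4 of the 408 positions (99.0% identity), and H3f3a-ps2 at 5 (98.8%). Short reads can hardly tell these pseudogenes from H3f3a, so their values are uncertain.

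Both targets were strongly reduced. H3f3a was at 1594, 2092 and 2110 FPKM in the control libraries and at 169.7, 117 and 161 FPKM in the H3.3-KD libraries. H3f3b was at 2903, 2895 and 3166 FPKM in control and at 311, 171 and 257 FPKM in H3.3-KD. The groups did not overlap for either gene, and the H3.3-KD mean was 7.72% of the control mean for H3f3a and 8.24% for H3f3b. The log2 fold change, which here is always the difference of mean log2(FPKM + 1), H3.3-KD minus control, and understates the change of low genes, was -3.69 ± 0.21 (SE) for H3f3a and -3.64 ± 0.23 for H3f3b (limma, adjusted p = 3.41e-05 and 3.97e-05). An exact two-sided permutation test of either gene gave p = 0.1, the smallest value that 3 against 3 libraries allow. In MFN1-KD embryos the targets were at means of 1336 and 2787 FPKM. Among the copies, H3f3c fell from 16.8, 21.1 and 13.8 FPKM to 1.68, 2.12 and 2.68 FPKM. H3f3a-ps2, chosen after its values were seen, was at 7.96, 17 and 13.2 FPKM in control and 2.81, 8.18 and 1.35 FPKM in H3.3-KD, with overlap.

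Libraries of a group resembled one another more than those of the other group. Pearson's r of log2(FPKM + 1) across the tested genes was 0.948 to 0.961 within control, 0.916 to 0.942 within H3.3-KD and 0.779 to 0.87 between the groups. The files give no read counts, and the most common low values corresponded to roughly 19200000 to 22700000 fragments per control library and 21200000 to 23900000 per H3.3-KD library. More genes were above 0 in H3.3-KD (23655 to 24820) than in control (21643 to 22507), and the FPKM values summed to 933000 to 969000 against 1110000 to 1330000. The cleavage-embryo markers Dppa3, Pou5f1, Klf5, Tfap2c and Cdh1 were above 0 in all 6 libraries. Of 20 cumulus and granulosa markers 3 had a mean of at least 1 FPKM, Fshr, Cyp11a1, Inhba and Lhcgr were at 0 in all 6 libraries, and the list summed to 18.9 to 31.5 FPKM in control and 42.7 to 72.3 FPKM in H3.3-KD, mostly from Amhr2. Of 20 sperm markers 2 reached 1 FPKM, with sums of 12.3 to 16.2 and 22.5 to 24.0 FPKM. Of 15 markers of primitive endoderm and later lineages 3 reached 1 FPKM, Sox17, Sox7, T and Alb were at 0, and the sums were 25.1 to 33.3 and 47.1 to 76.6 FPKM. Of 15 blood markers 8 reached 1 FPKM, and their sum was lower in H3.3-KD (97.7 to 227 against 22.6 to 33.4 FPKM), with Hba-a1 at 77.7, 66.7 and 66.2 against 14.6, 8.99 and 8.33 FPKM, 2 of the 8 called lower and a median log2 fold change of -3.04 relative to all genes tested. The part of such transcripts in the changes below was not tested.

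With a call defined as an adjusted p under 0.05 and a change of more than 2-fold, 3063 genes were higher in H3.3-KD (23.4% of those tested) and 1204 were lower (9.18%). For 35.6% of the tested genes the H3.3-KD values lay above all controls, and for 18.4% below all of them. The split depended on the scale. Scaling each library to the median ratio of its genes shifted the median change over all genes from 0.31 to -0.01 and gave 2144 higher (16.4%) and 2029 lower genes (15.5%). With each library's trend on transcript GC content and length taken out, 1470 were higher (11.4%) and 1681 lower (13%) of 12917. Risers were 71.8% of the called genes as deposited, 51.4% after median-ratio scaling, 61.7% after upper-quartile scaling, 86.0% with each library rescaled to the same FPKM sum and 46.7% without the GC and length trend. Directions below are those of the deposited FPKM. Where the counts of a list shift with the scale, some or all of the other counts follow in the same order, though not for every list. A list median is the median log2 fold change of the list minus that of all 13111 genes, which takes a common shift out. Protein-coding genes called higher had a median control level of 4.31 FPKM, those called lower 54.4 FPKM and all tested 7.69 FPKM. A gene low in control enters the test only when it is high in H3.3-KD, so the excess of risers among low genes is partly fixed by the filter.

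**Figure D1:**
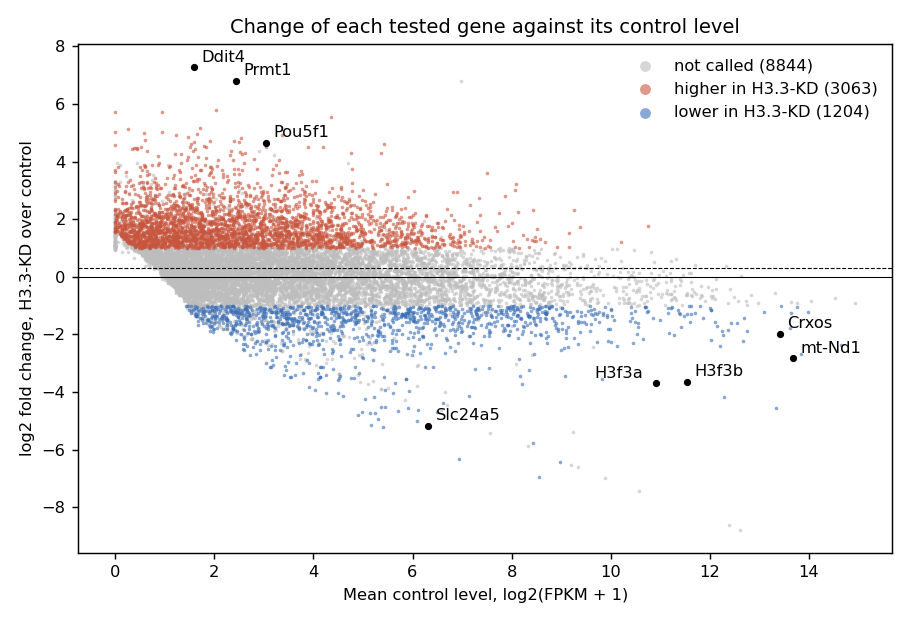
Log2 fold change of each of the 13111 tested genes (vertical axis, difference of mean log2(FPKM + 1), H3.3-KD minus control) against its mean control level (horizontal axis, log2(FPKM + 1)); the dashed line is the median of all genes, 0.31. The 3063 genes called higher lie mostly at low control levels, and the 1204 called lower reach to the highest levels.

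The largest rise among well-expressed protein-coding genes was that of Ddit4, a stress-induced inhibitor of mTORC1. Ddit4 was at 2.89, 1.31 and 1.88 FPKM in control and at 285, 385 and 879 FPKM in H3.3-KD (log2 fold change 7.28 ± 0.42, limma, adjusted p = 3.97e-05). Prmt1, the main protein arginine methyltransferase of the cell, rose from 6.56, 4.01 and 2.70 FPKM to 523, 586 and 639 FPKM (6.81 ± 0.28, adjusted p = 2.37e-05). Both were low in every control library and far higher in every H3.3-KD library. Rpp25, a subunit of RNase P and RNase MRP, went from 1.18, 0.83 and 0.78 FPKM to 89, 86.3 and 127 FPKM. Ube2s, the ubiquitin-conjugating enzyme that extends chains for the anaphase-promoting complex, went from 25.1, 14 and 18.9 FPKM to 1029, 701 and 1095 FPKM. Sesn2, another stress-induced inhibitor of mTORC1, went from 4.54, 1.05 and 1.15 FPKM to 71.3, 115 and 134 FPKM. None of these genes overlapped between groups, which the naming rule required. The others reported were Hist2h2bb (a histone H2B gene), Gm21887, the kinesin gene Kifc1, the acyl-CoA dehydrogenase gene Acads, Lmbr1l and the splicing factor gene Prpf19, with log2 fold changes from 5.80 for Hist2h2bb down to 4.84 for Prpf19.

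The largest falls held histone, mitochondrial and placental or secretory genes beside the targets. The gene model Gm11032 fell from 135, 489 and 498 FPKM to 17, 0 and 0 FPKM, with a wide spread between the H3.3-KD libraries (-6.94 ± 1.27, adjusted p = 0.00855). Slc24a5, an ion exchanger known from pigment cells, fell from 109, 82.7 and 44.7 FPKM to 0.93, 1.42 and 0.95 FPKM (-5.17 ± 0.35, adjusted p = 5.41e-05). The complex I gene mt-Nd3, of the mitochondrial genome, fell from 3322, 6435 and 5248 FPKM to 244, 268 and 284 FPKM. Sbp (spermine-binding protein), Hist1h4d and Hist2h2ac (histones H4 and H2A), Gm9376, Prl3b1 (prolactin family), Trappc1 (a vesicle tethering subunit) and Smim11 fell as well, with log2 fold changes from -4.03 for Sbp to -2.87 for Smim11. H3f3a and H3f3b stood between Gm9376 and Hist2h2ac in this order.

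**Figure D2:**
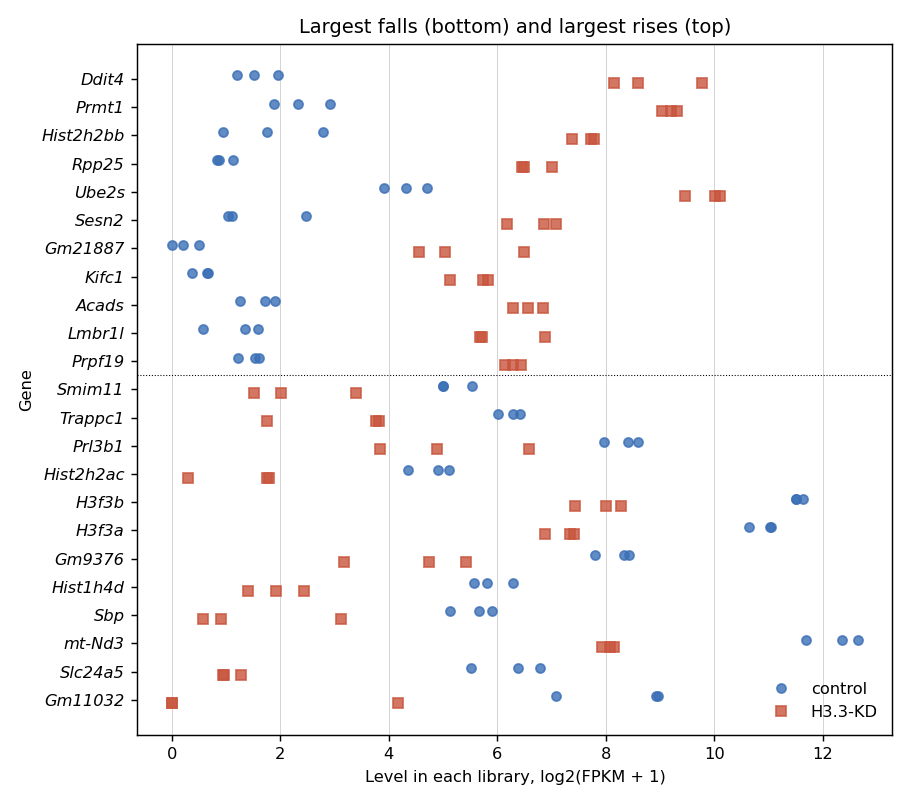
Level in each library (horizontal axis, log2(FPKM + 1)) of 11 of the 12 largest rises (top) and the 12 largest falls (bottom) among protein-coding genes that reached a mean of 10 FPKM, with the libraries of each group as separate symbols. The groups are apart for each gene by the rule that chose them, and in Gm11032 and Sbp 1 H3.3-KD library stands above the other two.

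Among the 12 genes of H3.3 and its chaperones, the targets fell and Hira and Cabin1 rose. Hira, the deposition chaperone, rose from 11.5, 12.9 and 9.88 FPKM to 36.3, 43.6 and 63.9 FPKM, without overlap (1.95 ± 0.27, limma, adjusted p = 0.00103). Cabin1 was at 4.22, 3.32 and 2.97 FPKM in control and at 5.38, 9.27 and 12.2 FPKM in H3.3-KD (1.09 ± 0.33, adjusted p = 0.03). Cabin1 changed by 0.76 after median-ratio scaling and 0.14 without the GC and length trend, and was called in neither. The other chaperones on the list were not called. Daxx was at 9.25, 9.80 and 7.73 FPKM against 13.7, 21.5 and 12.8 FPKM (0.75, adjusted p = 0.0628). Changes were 0.18 for Atrx, -0.06 for Asf1a and 0.27 for Asf1b, whose products hand H3 to HIRA and CAF-1 (adjusted p = 0.603, 0.858 and 0.409).

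Of 22 chaperones of other histones 11 were higher and 1 was lower, and the list median was 0.75. Npm3, a nucleoplasmin family gene, rose from 2.57, 1.85 and 1.42 FPKM to 67.5, 72 and 43.8 FPKM. Anp32e, which takes H2A.Z off chromatin, rose from 55.9, 55.4 and 48.4 FPKM to 211, 248 and 409 FPKM. Rbbp4, shared by CAF-1, NuRD and PRC2, rose from 45.9, 29.1 and 24.6 FPKM to 138, 153 and 150 FPKM. The one that fell was Npm2, the oocyte nucleoplasmin, from 25.9, 31 and 32.2 FPKM to 12.2, 10.8 and 17.3 FPKM. In these 4 genes the groups were apart. Without the GC and length trend 4 of the chaperones were higher and 3 lower.

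Other histone genes moved in both directions. Of 67 replication-dependent histone genes 32 were tested. Of these 8 were lower and 3 higher (10 and 2 after median-ratio scaling, 13 and 2 without the trend, list median -0.88). Their messages normally end in a stem-loop without a poly(A) tail, and the libraries were primed with oligo-dT, so these levels cover the tailed fraction only. Hist1h4d fell from 46.7, 77.6 and 55.2 FPKM to 2.78, 4.41 and 1.66 FPKM, and Hist1h4i, another H4 gene, from 30.4, 26.5 and 34.3 FPKM to 4.34, 2.23 and 4.58 FPKM. In contrast Hist2h2bb rose from 0.93, 5.91 and 2.36 FPKM to 212, 218 and 165 FPKM. Near-identical copies in the histone clusters make single values uncertain. Among 10 other variants, H2afx, whose phosphorylated product marks DNA breaks, rose from 34.2, 27.5 and 17 FPKM to 396, 229 and 482 FPKM (3.75 ± 0.34, limma, adjusted p = 0.000229). The linker histone gene H1fx was listed at 0 in all 3 controls and was at 6.92, 14.2 and 18.2 FPKM in H3.3-KD. H1f0, another linker histone gene, rose by 1.43. H2afv, a form of H2A.Z, fell from 364, 371 and 379 FPKM to 219.7, 145 and 156 FPKM. The other list member called lower was H3f3c, the H3f3a pseudogene, whose reads can hardly be told from those of the target.

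Among chromatin enzymes, remodeller and Polycomb genes were called mostly in the upward direction as deposited. Of 40 remodellers 18 were higher and 0 lower, also 0 at an unadjusted p under 0.05 in limma, with a list median of 0.61 (0.25 without the GC and length trend, 8 higher and 1 lower). The NuRD gene Mta2 rose from 20.4, 15.6 and 10.4 FPKM to 121, 127 and 257 FPKM, and Mta3, of the same complex, from 73.3, 58.1 and 52.8 FPKM to 181, 179.5 and 163 FPKM. Without the trend Mta3 changed by 0.58 and was not called. Of 29 Polycomb genes 12 were higher and 0 lower (13 and 1 at an unadjusted p, 8 and 1 after median-ratio scaling, 5 and 1 without the trend), Aebp2 rising by 1.11 and Ezh1 by 1.29. After median-ratio scaling neither Aebp2 (0.72) nor Ezh1 (0.93) was called, and Ezh1 was not called without the GC and length trend. Of 23 histone acetyltransferases and deacetylases 11 were higher and 3 lower, which became 4 and 5 without the trend. Kat5, the catalytic subunit of the TIP60 complex, rose from 6.28, 3.21 and 3.57 FPKM to 48.5, 52.6 and 44.8 FPKM, and Hdac1 from 84.3, 78.8 and 69.8 FPKM to 281, 304 and 221 FPKM. The coactivator acetyltransferase gene Ep300 fell from 17.2, 12.9 and 11.2 FPKM to 3.66, 3.67 and 6.38 FPKM (-1.42 ± 0.31, adjusted p = 0.00689), and its relative Crebbp from 44.1, 36 and 24.2 FPKM to 12.6, 12.4 and 18.1 FPKM.

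Single genes of histone methylation moved further than their lists. Cbx3, which encodes heterochromatin protein HP1 gamma, fell from 1363, 1214 and 1628 FPKM to 276, 244 and 343 FPKM (-2.29 ± 0.20, limma, adjusted p = 0.000151). On the H3K9 list 3 of 18 were higher and 2 lower (1 and 3 after median-ratio scaling, 1 and 4 without the trend). Setd1a, which methylates H3K4, rose from 3.58, 2.25 and 1.89 FPKM to 23.1, 21.3 and 21.1 FPKM, whereas Setd2, which methylates H3K36, fell from 127, 85.3 and 70.0 FPKM to 38.8, 44.1 and 52.2 FPKM. Those were 5 risers and 1 fall among 28 genes of H3K4 and H3K36 methylation (2 and 2 after median-ratio scaling, 2 and 2 without the trend). Of 10 arginine methyltransferase genes 4 were higher and 0 lower, with no more at an unadjusted p in limma (2 and 0 after median-ratio scaling, 1 and 0 without the trend), and Carm1 rose from 2.90, 1.04 and 1.66 FPKM to 9.56, 12 and 13.1 FPKM next to Prmt1. Zfp57, which guards methylation at imprinted regions, rose from 5.08, 6.87 and 3.63 FPKM to 15, 34.3 and 23.6 FPKM.

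Mitochondrial energy genes had list medians well below 0. Of 50 complex I genes 25 were lower and 0 higher (26 and 0 at an unadjusted p in limma), and of 41 genes of complexes II to V 20 were lower and 1 higher, with list medians of -1.32 and -1.36. Of the 13 protein genes of the mitochondrial genome 10 were lower and 0 higher (10 and 0 at an unadjusted p), with a list median of -2.18. The lower counts were 37, 28 and 13 after median-ratio scaling and 32, 20 and 8 without the GC and length trend, where the median of the mitochondrial genome was -1.23. The message of mt-Nd1, a complex I subunit, fell from 13500, 13209 and 12967 FPKM to 1890, 1826 and 1851 FPKM (-2.83 ± 0.13, adjusted p = 2.37e-05). Of the nuclear genes, Ndufa1 of the same complex fell from 504, 469 and 632 FPKM to 140.4, 93 and 64.1 FPKM. For mt-Cytb, of complex III, levels were 21464, 27228 and 28510 FPKM against 4016, 5308 and 5831 FPKM. The groups were far apart in all of these, and the H3.3-KD libraries of mt-Nd1 lay close together. Atp5j and Uqcr11, of ATP synthase and complex III, fell by 1.98 and 1.98 on the log2 scale. Atp5d, the delta subunit of ATP synthase, was the exception and rose by 1.37, a change of 0.44 without the GC and length trend, where it was not called. Genes of the mitochondrial genome held 9.97% to 10.6% of summed FPKM in control and 4.11% to 5.81% in H3.3-KD. In bulk samples, fewer cells of a type and less RNA per cell cannot be told apart.

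Ribosomal and proteasome genes also had medians below that of all genes, with members that rose. Of 78 mitochondrial ribosomal protein genes 27 were lower and 2 higher (list median -1.04). These counts were 41 and 0 after median-ratio scaling, and 41 and 0 without the trend. Mrps11 fell from 50.4, 47.9 and 56.8 FPKM to 14.6, 14 and 12.6 FPKM. Of 82 cytoplasmic ribosomal protein genes 12 were lower and 2 higher (list median -0.78). After median-ratio scaling 33 were lower, and 21 without the trend, each with 2 higher. Rpl38 fell from 4274, 6054 and 6164 FPKM to 2083, 1876 and 1482 FPKM, and Rps26 and Rpl5 fell by 1.56 and 1.35 on the log2 scale. Rps2 went the other way, from 337, 342 and 354 FPKM to 2118, 1183 and 2081 FPKM, as did Rps18. Ribosomal protein genes have many processed pseudogenes, and reads could be split between the copies. Of 37 proteasome genes 11 were lower and 4 higher (15 and 3 after median-ratio scaling, 13 and 2 without the trend, list median -0.90). The core particle genes Psmb7 and Psmb4 fell by 1.88 and 1.32, and the regulatory particle genes Psmd3 and Psmd13 rose by 2.45 and 1.85. Transcripts of the mitochondrial, ribosomal and proteasome lists were short, with list median lengths of 784 to 1955 nt against 3105 nt over all tested protein-coding genes. Of the decile of protein-coding genes highest in control 6.22% were higher and 28.1% lower. Its median was -0.83 relative to all genes, and -0.70 without the trend. The part of length in these falls was not tested beyond the removal of the trend, and that of level was not tested.

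**Figure D3:**
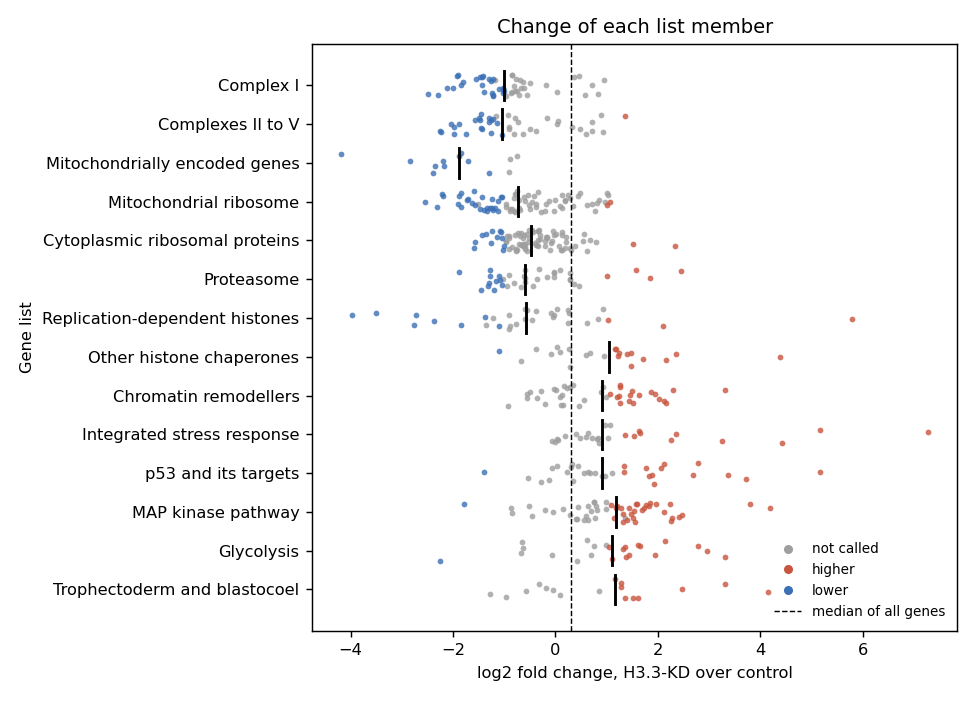
Log2 fold change (horizontal axis, H3.3-KD minus control) of each tested member of selected gene lists (rows), marked by call, with the median of each list and that of all genes, 0.31, drawn as lines. Complex I and the mitochondrial genome lie almost wholly on the low side with 0 members called higher, and the stress and MAP kinase lists lie mostly on the high side.

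Stress-response genes included the largest riser. The integrated stress response lowers general translation and induces stress and amino acid genes through ATF4 and its partners. Of 26 genes on this list 10 were higher and 0 lower (12 and 0 at an unadjusted p in limma), with a list median of 0.60, and 8 and 0 without the GC and length trend. Besides Ddit4 and Sesn2, the transcription factor gene Cebpb rose from 0.23, 0.40 and 0.41 FPKM to 26.1, 21.5 and 39.2 FPKM (4.43 ± 0.30, adjusted p = 5.59e-05). Trib3, a target of ATF4, rose from 2.28, 1.45 and 2.05 FPKM to 4.82, 8.68 and 12.3 FPKM (1.65 ± 0.36, adjusted p = 0.00702), and was not called without the GC and length trend (0.58). Atf4 itself was at 74, 69.8 and 57.1 FPKM against 109, 99.7 and 106 FPKM, without overlap, and its change of 0.64 (adjusted p = 0.0283) was under 2-fold. That of Atf4 came to -0.21 without the trend. The ATF4 targets Ddit3 and Chac1 did not pass the test (1.02 and 0.59, adjusted p = 0.0636 and 0.338), and Ddit3 passed it without the trend (1.24, adjusted p = 0.0285).

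The p53 list and the mTOR list held risers and a few falls. Both share members with the stress list, Sesn2 being on all of them and Ddit4 on the stress and mTOR lists. Their counts are thus not independent. Of 31 genes of p53 and its targets 13 were higher and 1 lower, and 10 and 1 without the GC and length trend. Phlda3, an inhibitor of AKT, rose from 4.35, 3.64 and 2.30 FPKM to 78.6, 51.8 and 43.9 FPKM, and Ei24, of the endoplasmic reticulum, from 76.6, 55 and 45.9 FPKM to 469, 329 and 429 FPKM. Mdm2, the ubiquitin ligase of p53, rose from 33.8, 17.6 and 18.7 FPKM to 72.9, 45.4 and 59.7 FPKM. Trp53 and Cdkn1a did not pass the test (0.77 and 0.56, adjusted p = 0.154 and 0.122), their groups overlapping, and Trp53inp1 fell. Of 21 BCL2 family and caspase genes 6 were higher (28.6%, against 23.4% of all genes tested) and 2 lower, with a list median of 0.05. These counts were 5 and 3 after median-ratio scaling and 5 and 4 without the trend. The risers included Bbc3, which encodes the death activator PUMA, from 0.28, 0.23 and 0.19 FPKM to 9.73, 9.36 and 17.8 FPKM, and its opponent Bcl2l1. Casp6 and Cflar fell. Of 37 genes of mTOR, PI3K and FoxO signalling 15 were higher and 2 lower (11 and 3 after median-ratio scaling, 7 and 3 without the trend). Akt1s1, which encodes the mTORC1 inhibitor PRAS40, rose from 3.44, 2.88 and 2.01 FPKM to 81, 110.5 and 102 FPKM, while Tsc2, also an mTORC1 inhibitor, fell from 15.4, 18.1 and 8.40 FPKM to 4.54, 6.01 and 2.69 FPKM, and Pik3ca fell as well. Tfeb, a factor for lysosomal genes that mTORC1 restrains, rose from 3.09, 2.19 and 2.20 FPKM to 40.9, 43.4 and 71.2 FPKM.

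Promoters are shown because the called genes of the stress list all rose. Windows of 250 bases before to 50 after the start site came from RefSeq (GRCm38.p6) and matched 8162 of 10118 tested protein-coding genes with 1 symbol each. The letters TGATGNAA, the core of the site that ATF4 binds with C/EBP proteins, occurred on either strand in 5 of 25 windows of the stress list, and in 3.97% of all 32851 windows. The 5 genes of the stress list were Trib3, which was called higher, and Chac1, Asns, Nupr1 and Pycr1, which were not. Over all matched genes TGATGNAA was found in 1.65% of the windows of genes called higher, 1.81% of those called lower and 2.29% of those not called. The letters GGGCGG, a GC box, on either strand were found in 68.0% of the windows of genes called higher, 53.5% of those called lower, 61.3% of those not called and 35.7% of all windows. The median GC content of these windows was 62.0%, 57.7%, 60.3% and 52.7% in the same order. The part of base composition in these shares was not tested. In the Trib3 window (chr2:152344011-152344310, minus strand) the match to TGATGNAA is in capitals.
Trib3: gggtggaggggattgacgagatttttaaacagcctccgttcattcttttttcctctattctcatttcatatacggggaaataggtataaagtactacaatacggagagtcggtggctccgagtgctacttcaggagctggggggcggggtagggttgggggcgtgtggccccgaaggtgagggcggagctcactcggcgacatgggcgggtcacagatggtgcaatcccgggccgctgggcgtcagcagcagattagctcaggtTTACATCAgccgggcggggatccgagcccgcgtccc
The windows of the largest rises, Ddit4 (chr10:59951721-59952020, minus strand, 1 match) and Prmt1 (chr7:44986371-44986670, minus strand, 4 matches), and of the fall of Slc24a5 (chr2:125067877-125068176, plus strand, 0 matches) have GGGCGG on either strand in capitals.
Ddit4: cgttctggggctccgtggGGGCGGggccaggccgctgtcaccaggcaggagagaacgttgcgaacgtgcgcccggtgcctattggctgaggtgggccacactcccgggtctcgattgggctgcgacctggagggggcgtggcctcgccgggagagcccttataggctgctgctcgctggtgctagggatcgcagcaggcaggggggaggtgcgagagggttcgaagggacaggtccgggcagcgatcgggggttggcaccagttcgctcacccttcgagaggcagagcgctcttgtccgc
Prmt1: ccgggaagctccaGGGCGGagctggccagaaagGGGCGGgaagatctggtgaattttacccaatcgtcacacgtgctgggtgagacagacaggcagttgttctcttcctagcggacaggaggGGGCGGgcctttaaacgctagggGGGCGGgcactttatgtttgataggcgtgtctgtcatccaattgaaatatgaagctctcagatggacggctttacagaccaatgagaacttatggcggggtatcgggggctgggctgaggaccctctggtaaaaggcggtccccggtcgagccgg
Slc24a5: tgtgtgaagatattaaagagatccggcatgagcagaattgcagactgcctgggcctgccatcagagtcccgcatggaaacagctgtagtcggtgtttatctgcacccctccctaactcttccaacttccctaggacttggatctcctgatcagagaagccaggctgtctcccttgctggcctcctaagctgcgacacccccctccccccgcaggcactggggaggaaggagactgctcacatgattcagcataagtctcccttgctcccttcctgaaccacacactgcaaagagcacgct

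Pluripotency genes did not move as a block. Pou5f1, the central pluripotency factor, was at 7.73, 8.90 and 5.10 FPKM in control and at 330.3, 392 and 63.1 FPKM in H3.3-KD (4.65 ± 0.69, limma, adjusted p = 0.00279), and at a mean of 2.24 FPKM in MFN1-KD. The third H3.3-KD library was well below the other two but above all controls. Nanog was at 21.7, 22.9 and 16.4 FPKM against 21.2, 21.4 and 8.63 FPKM (adjusted p = 0.494), with overlap, and Sox2 was too low to test. Of 26 genes of the pluripotency and inner cell mass list 10 were higher and 3 lower (8 and 3 after median-ratio scaling, 5 and 3 without the trend). Klf17, a zinc finger factor of the early embryo, rose from 50.1, 30.7 and 29.8 FPKM to 195, 255 and 401 FPKM, and the nuclear receptor gene Nr5a2 from 34, 29 and 22.9 FPKM to 106, 135 and 124 FPKM. Klf5, Lin28a and Tfap2c rose by 1.36, 2.51 and 1.36. Klf5 and Tfap2c changed by 0.98 and 0.98 after median-ratio scaling and by 0.77 and 0.50 without the GC and length trend. Klf5 and Tfap2c were called on neither scale. Sall4 fell from 106, 111 and 139 FPKM to 50.7, 42.7 and 48 FPKM, and Dppa5a from 10350, 13971 and 14052 FPKM to 5944, 5936 and 4085 FPKM. Dppa3, a maternal factor that guards DNA methylation, was at 10642, 13542 and 13913 FPKM against 6725, 7699 and 6244 FPKM, a change of -0.88 (adjusted p = 0.0033) that stayed under 2-fold as deposited and was -1.27 after median-ratio scaling.

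Of 17 trophectoderm and blastocoel genes 9 were higher and 0 lower, also 0 lower at an unadjusted p in limma, and 4 and 1 without the GC and length trend. Hand1, a trophoblast factor, rose from 18.6, 16.2 and 9.39 FPKM to 152, 224 and 98.9 FPKM (3.31 ± 0.35, adjusted p = 0.000368). Cdx2, the trophectoderm determinant, was at 0.09, 0.08 and 0.06 FPKM against 2.21, 6.24 and 0.57 FPKM (1.62 ± 0.53, adjusted p = 0.0395), low in every library and not called without the GC and length trend (0.53). Yap1, the Hippo-controlled coactivator, rose from 9.37, 9.43 and 6.29 FPKM to 36.3, 45.9 and 69.2 FPKM. Its DNA-binding partner Tead4 rose by 1.28, a change of -0.01 once GC content and length were accounted for. Gata3, Gata6, Krt8 and Cdh1 did not pass the test (adjusted p = 0.85, 0.601, 0.967 and 0.0591). Of 37 adhesion and polarity genes 10 were higher (27.0%, against 23.4% of all genes tested) and 1 lower (8 and 2 after median-ratio scaling, 7 and 5 without the trend). The list median was 0.24, and -0.04 without the trend. The claudin gene Cldn4 rose from 7.97, 4.15 and 3.29 FPKM to 104, 118 and 119.5 FPKM, and Jup, encoding plakoglobin, from 1.19, 1.69 and 1.86 FPKM to 22.3, 23.3 and 21.1 FPKM, while the tight junction gene Tjp1 fell by 1.01 on the log2 scale.

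Genes of the 2-cell burst of genome activation had a list median of 1.10 (0.98 without the GC and length trend). Yet 5 of 33 were called higher and 0 lower (10 and 0 at an unadjusted p in limma). These counts were 5 and 2 after median-ratio scaling and 4 and 1 without the trend. The H3.3-KD libraries differed widely in these genes. Zfp352 was at 0.44, 1.33 and 1.73 FPKM in control and at 2.35, 5.02 and 34.2 FPKM in H3.3-KD (2.09 ± 0.84, adjusted p = 0.0896), and Tdpoz3 at 0.64, 0.49 and 0.38 FPKM against 3.13, 46.7 and 9.66 FPKM. Tdpoz4 rose from 19.4, 10.1 and 12.1 FPKM to 211, 339 and 467 FPKM. Zscan4d, at 1.15, 1.02 and 1.30 FPKM against 0.37, 3.46 and 2.65 FPKM, overlapped and did not pass the test (adjusted p = 0.513). The Tdpoz and Zscan4 genes are families of near-identical copies, and their values are uncertain. Crxos, a homeobox gene of cleavage, fell from 8188, 13222 and 11369 FPKM to 2752, 2656 and 2776 FPKM (-1.97 ± 0.19, adjusted p = 0.000239). It was the only fall called among 12 such homeobox genes, of which 2 were higher (list median 0.16). After median-ratio scaling 1 was higher and 1 lower, and the same counts held without the trend. Obox8, of the same list, rose from 149.3, 139.5 and 150.3 FPKM to 359.4, 311.6 and 430.8 FPKM. Of 41 maternal oocyte genes 6 were higher and 4 lower (6 and 9 after median-ratio scaling, 4 and 7 without the trend). Omt2b fell from 282, 439 and 323 FPKM to 43.1, 63.6 and 53.3 FPKM, while Ago2, the slicer of small RNA silencing, rose from 10.9, 8.45 and 5.42 FPKM to 48.9, 61.6 and 62.4 FPKM. Padi6 and Nlrp5, of the subcortical maternal complex, did not pass the test (-0.23 and -0.71, adjusted p = 0.589 and 0.132). Without the GC and length trend both were lower (-1.003 and -1.25, adjusted p = 0.0368 and 0.0191), and after median-ratio scaling Nlrp5 reached an adjusted p of 0.0479 at a change of -0.91. Khdc3, of the same complex, went the other way, from 26.5, 20.4 and 21.6 FPKM to 106.7, 117.2 and 47.6 FPKM (1.85 ± 0.35, limma, adjusted p = 0.00365). It was not called without the GC and length trend (0.92).

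Signalling and glycolysis lists had medians above that of all genes. Of 55 MAP kinase pathway genes 29 were higher and 1 lower (list median 0.88), and 9 and 1 without the GC and length trend. Jund, an AP-1 subunit, rose from 1.30, 0.64 and 0.52 FPKM to 20.8, 36.2 and 42.6 FPKM, and the phosphatase gene Dusp10 from 2.93, 2.32 and 3.11 FPKM to 28.7, 68.2 and 70.5 FPKM. Spry2, an inhibitor of the pathway, fell from 85.3, 60.9 and 115 FPKM to 21.6, 18.7 and 33.6 FPKM. Of 24 Wnt pathway genes 7 were higher (29.2%, against 23.4% of all genes tested) and 0 lower (0 lower at an unadjusted p in limma, 7 and 1 after median-ratio scaling, 4 and 2 without the trend). Gsk3a, a kinase that restrains beta-catenin, rose from 0.39, 0.49 and 0.60 FPKM to 22.4, 22.9 and 17.9 FPKM. Of 23 glycolysis genes 13 were higher and 1 lower (list median 0.79), and 4 and 2 without the trend. Ldha, lactate dehydrogenase A, rose from 4.15, 5.89 and 3.73 FPKM to 33.9, 63.9 and 70.4 FPKM, and Pfkfb3, whose product activates phosphofructokinase, from 7.64, 4.10 and 3.58 FPKM to 48, 45.2 and 40.8 FPKM. Gapdh, which has many pseudogenes and is uncertain for that reason, rose from 4.61, 1.85 and 5.49 FPKM to 33.3, 15.4 and 60.3 FPKM. The exception was the hexokinase gene Hk2, which fell from 29.5, 42 and 29.9 FPKM to 5.88, 9.78 and 4.08 FPKM. Of 30 pyruvate oxidation and TCA cycle genes 3 were higher and 2 lower (2 and 4 after median-ratio scaling, 1 and 3 without the trend).

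Cell division and repair genes moved in both directions. Of 31 cyclin, CDK and inhibitor genes 13 were higher and 1 lower (8 and 1 after median-ratio scaling, 5 and 3 without the trend). Pkmyt1, a kinase that holds CDK1 inactive before mitosis, rose from 1.82, 1.39 and 1.38 FPKM to 23.6, 22.6 and 18.1 FPKM. The mitotic kinase genes Aurka and Plk1 rose by 2.15 and 2.32, and the replication licensing genes Cdc6 and Cdt1 by 1.83 and 1.99. The inner kinetochore genes Cenpw and Cenpk fell by 1.65 and 1.92, and Gins1 and Pola1, of the replication fork, by 1.37 and 1.35. Of 53 replication genes 10 were higher and 6 lower (5 and 15 after median-ratio scaling, 2 and 15 without the trend). Of 57 kinetochore and spindle genes 10 were higher and 7 lower (6 and 15 after median-ratio scaling, 3 and 11 without the trend). Atm, the kinase that answers DNA breaks, fell from 31.7, 35.4 and 41.6 FPKM to 8.29, 10.4 and 11.2 FPKM, while the excision repair helicase gene Ercc2 rose from 0.65, 1.11 and 0.75 FPKM to 21.1, 31.9 and 29.5 FPKM.

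RNA-processing and folding genes split as well. Of 54 spliceosome genes 14 were higher and 16 lower (9 and 19 after median-ratio scaling, 10 and 16 without the trend). U2af2, which reads the 3′ splice site, rose from 10.1, 7.38 and 4.28 FPKM to 175, 187 and 178 FPKM, and Sf3a2 of the U2 particle from 0.48, 0.18 and 0.38 FPKM to 43.1, 26.6 and 19.9 FPKM. The small Lsm7 and Snrpd2 fell by 1.75 and 1.67. Of 49 translation factors 11 were higher and 3 lower (8 and 7 after median-ratio scaling, 5 and 4 without the trend), with Eif4a1, the cap-complex helicase, from 302, 248 and 248 FPKM to 2195, 1881 and 2430 FPKM (3.02 ± 0.17, limma, adjusted p = 3.41e-05). Of 64 genes of ribosome biogenesis 23 were higher and 5 lower (17 and 12 after median-ratio scaling, 11 and 9 without the trend). Of 41 heat shock and folding genes 14 were higher and 3 lower (7 and 3 after median-ratio scaling, 5 and 4 without the trend), and the cytosolic HSP90 genes moved apart. Hsp90ab1 rose from 1302, 1222 and 1039 FPKM to 2998, 2728 and 2530 FPKM, and Hsp90aa1 fell from 2154, 3440 and 2670 FPKM to 1047, 958 and 517 FPKM. The change of Hsp90ab1 was 0.82 after median-ratio scaling and 0.54 without the trend, and it was called on neither scale. The inducible Hspa1a rose from 0.19, 0.28 and 0.12 FPKM to 12, 20.2 and 4.60 FPKM. The LC3 genes of autophagy also moved apart, Map1lc3a from 289, 293 and 253 FPKM to 1385, 1515 and 1088 FPKM and Map1lc3b from 9021, 11984 and 12515 FPKM to 5828, 5317 and 5230 FPKM. Mfn2, of mitochondrial fusion, rose from 4.33, 3.66 and 3.41 FPKM to 10.4, 11.8 and 12.1 FPKM, though it was not called without the GC and length trend, and its relative Mfn1 was at 51.6, 22.6 and 23.8 FPKM against 100.2, 89.5 and 40.0 FPKM (1.21 ± 0.43, adjusted p = 0.0565), with overlap.

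**Figure D4:**
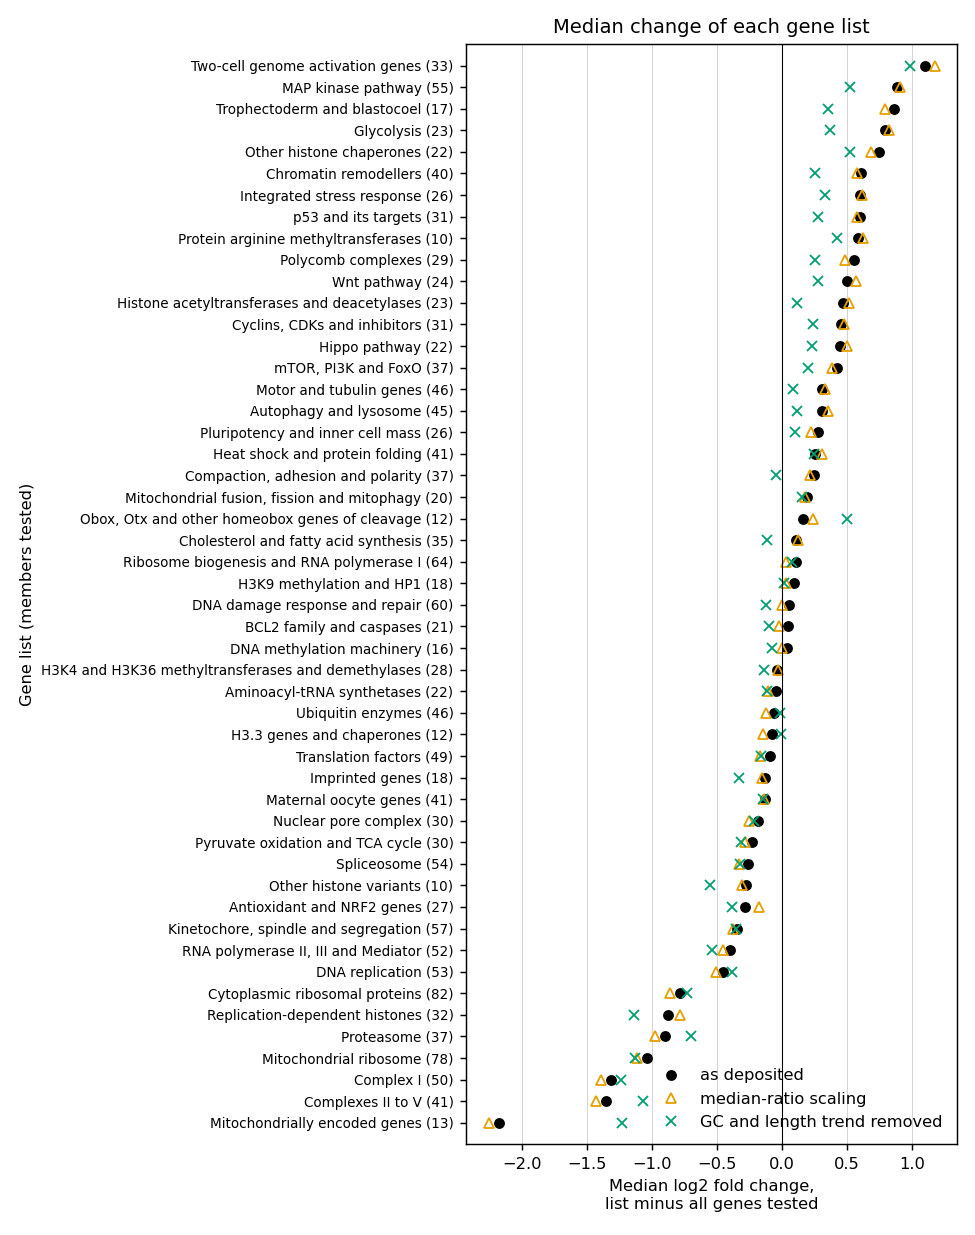
Median log2 fold change of each gene list, apart from the markers of other cells and of the sex chromosomes, minus the median of all genes tested (horizontal axis), from the deposited FPKM, after median-ratio scaling and without the GC and length trend, as separate symbols. Complex I, complexes II to V, the mitochondrial genome, the mitochondrial ribosome and the proteasome stay below 0 on each of the 3 scales. For complex I the medians are -1.32, -1.39 and -1.24. The lists of 2-cell genome activation (1.10, 1.18 and 0.985) and of the MAP kinase pathway (0.88, 0.91 and 0.52) are among those that stay above 0.

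Called genes also differed from all tested genes in base composition, and those called lower in length, which the comparison had not selected. Of the decile of protein-coding genes richest in GC (median 59.4%) 57.3% were called higher and 2.48% lower, and of the decile poorest in GC (median 39.4%) 5.12% were higher and 14.8% lower. Genes called higher had a median transcript GC content of 53.8%, genes called lower 45.9% and all tested 49.3%. Median transcript lengths were 3092, 2013 and 3105 nt in the same order. In the shortest decile of transcripts (median 914 nt) 8.88% were higher and 26.1% lower, and in each longer decile more were higher than lower. Across 10126 protein-coding genes Spearman's rho of the log2 fold change was 0.40 with GC content and 0.09 with length, where genes are not independent replicates. The level of a gene fell with its GC content in each control library (rho -0.21 to -0.24) and each MFN1-KD library (-0.27 to -0.28), and hardly in the H3.3-KD libraries (-0.029 to -0.00063). The part of this difference between libraries in the changes above was not tested beyond the removal of the trend. For the range of composition 4 genes named above or on the lists were chosen by their transcript GC content. They are the 2 richest in GC among those called higher and the 2 poorest among those called lower, gene models apart. Their contrast was thus fixed by the choice. Their first 90 coding bases follow, with G and C in capitals. They are H1fx (chr6:87981267-87981356, minus strand, 75.6% GC), Cebpb (chr2:167689022-167689111, plus strand, 66.7%), mt-Nd3 (chrM:9459-9548, plus strand, 32.2%) and Ube2v2 (a ubiquitin-conjugating enzyme variant, chr16:15581134-15594475, minus strand, over 2 exons, 43.3%).
H1fx: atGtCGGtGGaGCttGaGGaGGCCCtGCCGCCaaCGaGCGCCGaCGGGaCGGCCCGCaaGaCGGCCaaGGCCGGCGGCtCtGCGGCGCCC
Cebpb: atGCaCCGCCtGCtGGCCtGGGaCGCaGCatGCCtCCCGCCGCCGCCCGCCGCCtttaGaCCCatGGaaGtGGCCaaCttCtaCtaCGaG
mt-Nd3: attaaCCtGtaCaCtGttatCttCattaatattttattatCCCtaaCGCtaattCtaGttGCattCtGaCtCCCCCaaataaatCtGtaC
Ube2v2: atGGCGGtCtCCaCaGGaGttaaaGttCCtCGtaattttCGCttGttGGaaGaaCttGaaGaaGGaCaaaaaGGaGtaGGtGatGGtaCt

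**Figure D5:**
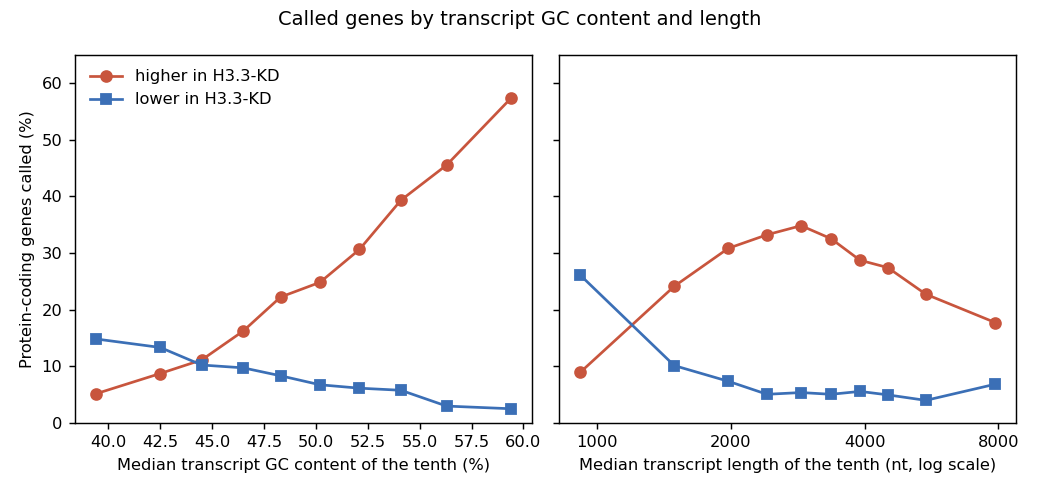
Share of tested protein-coding genes called higher or lower in H3.3-KD (vertical axis, percent) by deciles of transcript GC content (percent) and of transcript length (nucleotides, log scale). The share called higher climbs from 5.12% to 57.3% along GC content, and falls outnumber rises in the shortest decile of transcripts.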

How the data were processed

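RNA was measured by sequencing of full-length cDNA (Smart-Seq2, oligo-dT primed) from 3 control, 3 H3.3-KD and 3 MFN1-KD pools of 8-cell embryos. The authors deposited 1 FPKM column per library, after adapter trimming with cutadapt 1.16 and alignment with STAR to mm10 per the labels. The program and annotation behind the FPKM values and the strand setting are not given in the sources used here. Counts were not used here, so intervals from counting error could not be given, and fragment numbers are rough estimates from the most common low FPKM values of transcripts of at least 1000 nt.

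Files of 55335 rows were joined by row and groups were taken from the labels. Symbols were matched to GENCODE M21 (GRCm38), which held 53647 of them. Genes with a mean of 1 FPKM or more over the 6 libraries were tested on log2(FPKM + 1) with limma 3.58.1 (trend and robust, R 4.3.3), and p-values were adjusted by the Benjamini-Hochberg method over all 13111. Genes were called at an adjusted p below 0.05 where the change also exceeded 2-fold. The GC and length trend was removed per library with splines of 5 degrees of freedom, for the 12917 genes with both values. A contrast of H3.3-KD with MFN1-KD shares the H3.3-KD libraries that chose the named genes, and is not reported. The fit was tested on simulated data before use. Python 3.11.15 served for tables and plots, with pandas 2.3.3, numpy 2.4.6, scipy 1.17.1 and matplotlib 3.10.9.

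Genes are named by rule: the targets, the 12 largest rises and 12 largest falls of protein-coding genes (mean of at least 10 FPKM, adjusted p under 0.05, no overlap), per list up to 3 called members in each direction with the smallest p (mean of at least 5 FPKM), and a fixed set of regulators and markers whatever their values. A pair of genes that the rule names is not reported here. Asns, Nupr1 and Pycr1 are named for the motif and the remaining markers for their list. The members and the 55 gene lists were chosen with earlier results of these data known, and lists are therefore described by counts and medians, with no test. Alternatives were scaling (3 kinds), pseudocount, filter, libraries fitted, biotype, a replicate block, the GC and length trend, an unadjusted p and leaving out each of the 6 libraries.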

Additional observations from a re-analysis of the deposited data

How the results depend on the processing

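The count of genes higher in H3.3-KD, 3063 as deposited, was 4132 with each library rescaled to the same FPKM sum, 2144 after median-ratio scaling, 1589 with a mean of at least 10 FPKM required and 1470 without the GC and length trend. The count of genes lower, 1204 as deposited, was 670 with each library rescaled to the same FPKM sum, 2029 after median-ratio scaling, 1681 without the GC and length trend and 800 with a mean of at least 10 FPKM required. The causes were not tested, apart from the stricter filter, which tested 6058 genes. An unadjusted p under 0.05 gave 3288 higher and 1368 lower. Leaving out each library in turn gave 2262 to 3308 higher and 887 to 1278 lower, both lowest without control replicate 3. The replicate numbers were shared between groups, but same-numbered libraries deviated from their group means with correlations of -0.028, 0.019 and -0.052, so the number was taken as a name only. With the replicate number as a block 2891 genes were higher and 1164 lower.

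The alternatives were checked for 156 genes named in the text, which leave out Khdc3 and Obox8. Of these, 2 changed sign under an alternative while past the test as deposited, both without the GC and length trend, Tead4 (-0.007209) and Atf4 (-0.2139). In that setting Cdx2, Cabin1, Trib3, Tfap2c, Mfn2, Ezh1, H1f0, Atp5d, Amhr2 and H3f3a-ps2 no longer passed an adjusted p of 0.05. Ddit3, Padi6 and Nlrp5 passed it there (adjusted p = 0.0285, 0.0368 and 0.0191) but not as deposited, and Daxx, Cdh1, Zfp352, Trp53, Cdkn1a, Ddit3, Mfn1 and Nlrp5 passed under 1 or more other settings. Leaving out 1 library took the adjusted p of Cdx2 to at most 0.106 and of Cabin1 to at most 0.103 (both without control replicate 3), of Gm11032 to 0.0574 and Tdpoz3 to 0.0901 (without H3.3-KD replicate 3), and of Prl3b1 to 0.0546 (without H3.3-KD replicate 1). Atf4, Amhr2, Casp6, Cflar, Crebbp, H1f0, H3f3a-ps2, Tjp1, Trp53inp1 and Tsc2 also missed 0.05 without 1 or more of the libraries. The block took Atf4, Cabin1, Cdx2 and Tjp1 past 0.05 (adjusted p = 0.0598, 0.0618, 0.0505 and 0.067).

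Of 880 list medians under alternatives 819 stayed within the spread, 45 moved and 16 changed sign, all 16 in lists near 0. The median of H3K4 and H3K36 methyltransferases and demethylases was 0.221 with no filter and -0.071 to 0.038 with 1 library left out. The median of DNA methylation machinery was -0.00147 after median-ratio scaling, -0.0715 with a mean of 10 FPKM required, -0.0822 without the GC and length trend, -0.0548 for protein-coding genes alone and -0.0257 to 0.0937 with 1 library left out. The median of Ubiquitin enzymes was 0.00749 with each library rescaled to the same FPKM sum, 0.193 with no filter, 0.0271 with a mean of 10 FPKM required and -0.132 to 0.067 with 1 library left out. With no filter the median of Imprinted genes was 0.13 and the median of Pyruvate oxidation and TCA cycle genes 0.0262. The causes were not tested.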

Other observations

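Further lists are given by their counts as deposited and, in brackets, on the other scales. For comparison, 23.4% of all genes tested were higher as deposited and 9.18% lower. Of 22 Hippo pathway genes 10 were higher and 1 lower (8 and 2 after median-ratio scaling, 4 and 1 without the trend; list median 0.45), among them Ccn1, a target of the pathway, which rose from 11.5, 10.1 and 7.04 FPKM to 80.2, 56.6 and 60.0 FPKM. Of 45 autophagy and lysosome genes 14 were higher and 2 lower (12 and 3 after median-ratio scaling, 8 and 2 without the trend; list median 0.30), and Atg9a rose by 3.87 on the log2 scale. Of 27 antioxidant genes 6 were higher and 1 lower (4 and 4 after median-ratio scaling, 4 and 4 without the trend), Hmox1, which degrades heme, rising by 2.36 on the log2 scale and Txn1, thioredoxin, falling from 99, 167 and 173 FPKM to 58, 35.5 and 34.3 FPKM. Of 30 nuclear pore genes 5 were higher and 3 lower (3 and 7 after median-ratio scaling, 2 and 5 without the trend). Of 52 genes of RNA polymerases II and III and Mediator 10 were higher and 10 lower (6 and 18 after median-ratio scaling, 4 and 15 without the trend). Ubiquitin enzymes, 46 in all, had 13 higher and 4 lower (12 and 8 after median-ratio scaling, 8 and 8 without the trend), and 46 motor and tubulin genes 13 and 3 (9 and 5 after median-ratio scaling, 9 and 6 without the trend). Falls outnumbered rises without the trend, but not as deposited, for 35 lipid synthesis genes with 8 higher and 0 lower (4 and 3 after median-ratio scaling, 3 and 4 without the trend), 60 DNA repair genes with 12 and 2 (6 and 7 after median-ratio scaling, 5 and 10 without the trend), 22 aminoacyl-tRNA synthetases with 4 and 1 (3 and 1 after median-ratio scaling, 0 and 2 without the trend), 16 DNA methylation genes with 4 and 0 (4 and 3 after median-ratio scaling, 2 and 3 without the trend) and 18 imprinted genes with 3 and 1 (3 and 3 after median-ratio scaling, 0 and 2 without the trend). Of 20 genes of mitochondrial fusion, fission and mitophagy 4 were higher and 0 lower (3 and 1 after median-ratio scaling, 1 and 0 without the trend). Of 8 tested Y-linked and X-inactivation genes 0 were higher and 0 lower (0 and 3 at an unadjusted p in limma, 0 and 3 after median-ratio scaling, 0 and 0 without the trend), with a list median of -1.05.

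By kind of gene, 26.1% of 10126 protein-coding genes were higher and 8.02% lower, while long noncoding RNAs leaned the other way, with 14.7% of 360 lincRNAs higher and 18.6% lower. Of 1089 processed pseudogenes 21.5% were higher and 7.07% lower, and reads shared with parent genes make these uncertain. Of 186 snoRNA genes 3 were higher and 33 lower, and of 180 miRNA genes 4 were higher and 31 lower, for which FPKM of very short annotated transcripts from a poly(A)-primed library are uncertain. On the X chromosome 13.0% of 355 genes were higher and 12.7% lower. On the other chromosomes, leaving out the Y chromosome and the mitochondrial genome, the share called higher ran from 12.6% on chromosome 13 to 34.1% on chromosome 17. In all, 24 genes were listed at 0 in every control and at 1 FPKM or more in every H3.3-KD library, 3 of them protein-coding, and 32 were the reverse, 0 of them protein-coding.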
